A study of Homo sapiens with 6 samples.

Results

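Secretory and vesicle trafficking genes were followed in HepG2 cells after transfection with an siRNA against the long noncoding RNA H19. They were chosen by name from the authors' deposited table of called genes, as the names that start with SEC, RAB, ARF, ARL, VPS, SNX, STX, VAMP, TRAPPC, TMED, SNAP, SYT or GOLGA and a digit, the coatomer subunits, the numbered adaptor subunits and BET1 with its relative. Of 1998 listed genes, 37 met this rule, and 1961 did not. HepG2 is an established human liver cancer line that still secretes plasma proteins. The siH19 group (3 libraries) received the H19 siRNA and the siCon group (3 libraries) a control siRNA, and both were collected after 48 h from the same line. Each group has 1 combined value per gene in the table, so the value of each library was not analysed here, and neither was the level of H19 itself. The study set out to identify genes that H19 regulates in cells of hepatic origin.

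Proteins bound for secretion enter the endoplasmic reticulum (ER) through the SEC61 channel, leave it in vesicles coated by COPII and pass through the Golgi, from which COPI vesicles return material to the ER. Clathrin adaptors, sorting nexins, retromer and ESCRT complexes sort cargo through endosomes, while RAB, ARF and ARL GTPases mark each membrane and SNARE proteins fuse vesicles with their targets. Hepatocytes load this route heavily, since they make most of the proteins of plasma. In bulk RNA, fewer cells of a type and less RNA per cell cannot be told apart.

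Short DNA stretches from the start regions of 4 genes are shown here because they hold TGACGTGG, 1 of 11 motifs searched. The genes are the COPI subunits COPA and COPB2, the golgin GOLGA5 and the COPII subunit SEC23A. All 4 were lower in siH19, and the stretches were picked after these values were seen. The stretches are RefSeq sequences on GRCh38.p14, read 5′ to 3′ along the gene. Capitals mark TGACGTGG or, where it lies on the other strand, its complement CCACGTCA. This motif is known as a binding sequence of XBP1 and its relatives, which drive secretory genes during ER stress.
COPA, chr1:160343227-160343256, minus strand: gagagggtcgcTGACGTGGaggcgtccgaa
COPB2, chr3:139389632-139389661, minus strand: tcccggaagttCCACGTCAgtcagtctgac
COPB2, chr3:139389825-139389854, minus strand: gctcagcggcaCCACGTCAcggcccttagt
GOLGA5, chr14:92794115-92794144, plus strand: ccggcggcgagCCACGTCAcacgcacgcag
SEC23A, chr14:39103221-39103250, minus strand: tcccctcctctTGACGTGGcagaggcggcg

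Further stretches come from 3′ untranslated regions (UTRs) and are shown because they hold a 7-base sequence whose carriers in the whole table leaned to 1 direction, with values given further on. They were read from GENCODE release 29 transcripts on GRCh38, and the capitals mark CATCAAA in RAB8A, RAB8B, RAB15 and SNX10, and GCAGTAC in STX2.
RAB8A, chr19:16133755-16133784, plus strand: atgccacccatCATCAAAagactaaattgg
RAB8B, chr15:63264166-63264195, plus strand: gcccatcttgtCATCAAAggccacaatttc
RAB15, chr14:64946616-64946645, minus strand: ggggaaagaacCATCAAAcctttcctcctg
SNX10, chr7:26374233-26374262, plus strand: tgtaacatagcCATCAAAattaatattatg
STX2, chr12:130789893-130789922, minus strand: ttcttagatttGCAGTACctactgaaattt

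The trafficking genes fell more often than they rose. Of the 37, the authors' deposited table gave 25 as lower in siH19, which is 67.6%, beside 55.3% of all listed genes, and 12 were higher, which is 32.4%, beside 44.7%. The exact Clopper-Pearson 95% interval of the share that was higher, 18.0 to 49.8%, holds the value of the whole table. The median log2 fold change of the members was -0.32, beside -0.27 for all listed genes. By place of action, 2 of 3 ER entry genes, 7 of 8 ER exit genes, 6 of 7 Golgi genes and 9 of 13 endosome genes were lower, while 5 of 6 genes acting at the cell surface were higher. The exact 95% intervals of the share higher ran from 0.8 to 90.6% for ER entry, 0.3 to 52.7% for ER exit, 0.4 to 57.9% for Golgi, 9.1 to 61.4% for endosome and 35.9 to 99.6% for cell surface genes. Each of these intervals is wide and holds the 44.7% of the whole table. They cover counting error only and, like that of all 37, treat genes as independent, which genes of 1 comparison need not be. No conclusion is drawn from them.

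Every listed gene had passed the authors' threshold of 0.05 on the adjusted p, so being called is a property of the table and not a result about these genes. An adjusted p under 0.01 was given for 25 of the 37 in the authors' deposited table, a share close to the 64.8% of all listed genes. Most changes were small. Only 5 of the 37 changed at least 1.5-fold, while 28.2% of all listed genes did, and the median size of the change was 1.33-fold, beside 1.37-fold for the whole table. GENCODE release 29 holds 348 protein-coding names that meet the rule, of which 37 (10.6%) were in the table, and 1932 of 19907 protein-coding names (9.7%) were in it overall. The other 311 have no value in the files used here, and it is not known which of them were expressed.

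**Figure D1:**
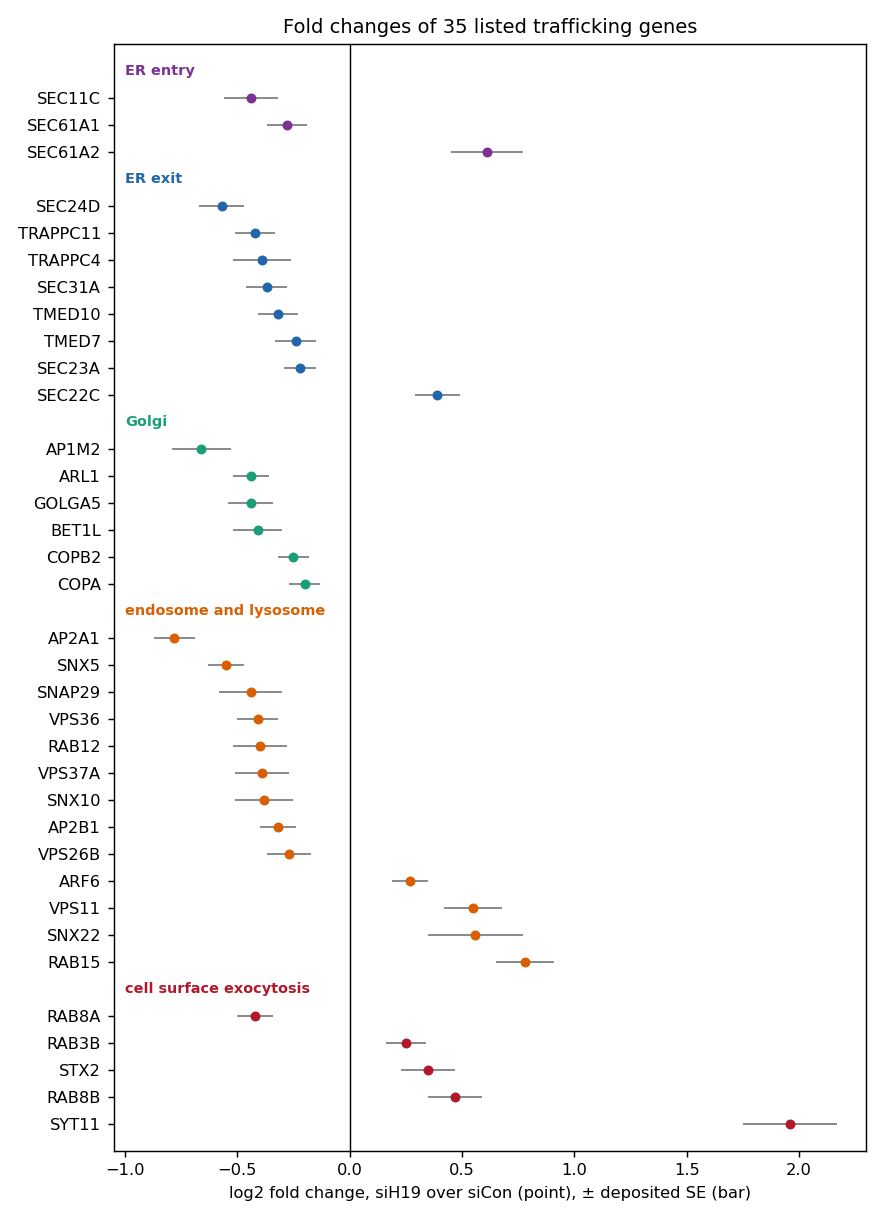
Log2 fold change of 35 of the 37 genes (point; positive means higher in siH19) with the authors' standard error (bar), grouped by place of action. Coat and adaptor genes all lie left of 0, from -0.78 for AP2A1 to -0.20 for COPA, while SYT11 stands alone on the right at 1.96.

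The sources used here give no library totals, so depth is known only through the mean normalized count of each gene, which ran from 42.7 to 19707 over the 37 genes in the authors' deposited table. It was at least 100 for 35 of them, and the deposited standard error (SE) ran from 0.07 to 0.21. Hepatocyte markers were present, with 7 of 7 fixed markers listed and all lower in siH19, from TTR at -0.88 to APOA1 at -0.33 in the authors' deposited table. Of all listed genes 55.3% were lower. Of 16 markers of leukocytes, endothelium, stellate cells and bile duct, 4 were listed (CD68, LYZ, LYVE1 and ACTA2) and all were lower. Both groups came from 1 cell line, so these transcripts are not read as a sign of other cell types. The part of either marker set in the results was not tested.

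Genes of protein entry into the ER were divided between the 2 paralogues of the channel. SEC61A1, the main channel subunit, had a normalized count of 3769 in siH19 and 4576 in siCon, a log2 fold change of -0.28 ± 0.09 (SE; adjusted p = 0.0131) in the authors' deposited table. Its paralogue SEC61A2 went the other way, with 157.6 in siH19 and 103.3 in siCon, 0.61 ± 0.16 (adjusted p = 0.00169) in the authors' deposited table. SEC11C, a catalytic subunit of the signal peptidase that trims new secretory proteins, had 545 in siH19 and 739.3 in siCon, -0.44 ± 0.12 (adjusted p = 0.00425) in the authors' deposited table. Counts are not divided by gene length, so the channel paralogues are compared in their changes and not in their levels. The normalized counts per group given here and below were turned back from the authors' log2 values, which are rounded to 2 decimals.

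ER exit genes were lower in 7 of 8 cases, with a median log2 fold change of -0.345. All 3 listed COPII coat genes fell. SEC24D, 1 of 4 annotated SEC24 paralogues that bind cargo and the 1 listed here, fell most: it had 1136 in siH19 and 1687 in siCon, -0.57 ± 0.10 (adjusted p = 2e-06) in the authors' deposited table. SEC31A of the outer coat had 4837 in siH19 and 6208 in siCon, -0.37 ± 0.09 (adjusted p = 0.00149) in the authors' deposited table. SEC23A, which forms the inner coat with SEC24 proteins and had the highest mean count of the 37, had 18179 in siH19 and 21174 in siCon, -0.22 ± 0.07 (adjusted p = 0.0202) in the authors' deposited table. The COPII falls thus ranged from 1.17-fold for SEC23A to 1.49-fold for SEC24D.

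The remaining ER exit genes include p24 cargo receptors and subunits of TRAPP, a tether that catches COPII vesicles and activates RAB1. TMED10 had 3397 in siH19 and 4240 in siCon, -0.32 ± 0.09, and its relative TMED7 had 3373 in siH19 and 3984 in siCon, -0.24 ± 0.09, in the authors' deposited table. TRAPPC11 had 675.6 in siH19 and 903.9 in siCon, -0.42 ± 0.09, in the authors' deposited table. TRAPPC4, a core subunit, had 257.8 in siH19 and 337.8 in siCon, -0.39 ± 0.13, in the authors' deposited table. These 4 falls ran from 1.18-fold to 1.34-fold. The exception among the 8 was SEC22C, an ER membrane protein of the SEC22 family, with 739.3 in siH19 and 564.2 in siCon, 0.39 ± 0.10 (adjusted p = 0.00114) in the authors' deposited table. TMED7 shares exons with the read-through gene TMED7-TICAM2, and SEC31A with the listed THAP9-AS1, which was higher (0.46 ± 0.12) in the authors' deposited table, so reads could be shared.

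Partners of these genes outside the name rule leaned the same way. Of 28 COPII partners and ER cargo receptors, 11 were listed, 10 lower and 1 higher, with a median of -0.32. Of all listed genes 55.3% were lower, and of those with a mean count of at least 1000, 60.4%. Of all protein-coding names 9.7% were listed. The 2 largest falls in the authors' deposited table were MIA2 (-0.49 ± 0.11), which helps load large cargo, and PREB (-0.45 ± 0.08), the exchange factor that activates SAR1 to start the coat. SAR1 itself was divided, with SAR1B higher (0.41 ± 0.15, adjusted p = 0.0472) and SAR1A lower (-0.20 ± 0.07, adjusted p = 0.0436) in the authors' deposited table, both near the threshold. CTAGE5, also lower (-0.24 ± 0.09) in the authors' deposited table, is an older name of MIA2 in RefSeq. These 2 listed names may thus share reads, and both are counted among the 11. LMAN1, the receptor for coagulation factors and other glycoproteins, KDELR2, which returns ER residents from the Golgi, and SURF4, a cargo receptor, stood at -0.36, -0.36 and -0.34 in the authors' deposited table. Of 26 genes of the translocon and signal peptide machinery 9 were listed, 8 lower and 1 higher, with a median of -0.30. The same 55.3% of all listed genes stands beside this count. In the authors' deposited table the largest falls were those of SSR1 (-0.51 ± 0.12), a translocon-associated subunit, and the ER chaperone partner DNAJB9 (-0.43 ± 0.13), and the rise was SRP9 (0.24 ± 0.08), a subunit of the signal recognition particle.

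Golgi genes were lower in 6 of 7 cases, with a median log2 fold change of -0.41. The COPI subunits changed least: COPB2 had 4211 in siH19 and 5008 in siCon, -0.25 ± 0.07 (adjusted p = 0.00566), in the authors' deposited table. COPA had 3192 in siH19 and 3666 in siCon, -0.20 ± 0.07 (adjusted p = 0.0277), in the authors' deposited table, and this was the smallest fall of the 37. AP1M2, the medium subunit of the clathrin adaptor of epithelial cells, fell most, with 213.8 in siH19 and 337.8 in siCon, -0.66 ± 0.13 (adjusted p = 7e-06) in the authors' deposited table. Of 8 annotated COPI subunits of the rule 2 were listed, and of 8 annotated AP1 names 1.

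The other Golgi genes guard its membranes or fuse vesicles with them. ARL1, a GTPase that recruits golgins to the trans-Golgi network, had 1399 in siH19 and 1898 in siCon, -0.44 ± 0.08 (adjusted p = 2e-06), in the authors' deposited table. GOLGA5, a golgin tether, had 1003 in siH19 and 1361 in siCon, also -0.44 ± 0.10, in the authors' deposited table. BET1L, a SNARE of transport within the Golgi, had 369.6 in siH19 and 491.1 in siCon, -0.41 ± 0.11, in the authors' deposited table. These 3 falls lay within 0.03 of each other on the log2 scale, less than the smallest of their SEs, 0.08.

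Of 34 Golgi tethers and ARF regulators 3 were listed and all 3 were lower, beside 55.3% of all listed genes. ARFGEF2 and GBF1, exchange factors that activate ARF at the trans-Golgi and at the cis-Golgi, stood at -0.79 ± 0.08 and -0.47 ± 0.09 in the authors' deposited table, and COG4 of the COG tether at -0.35 ± 0.11.

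**Figure D2:**
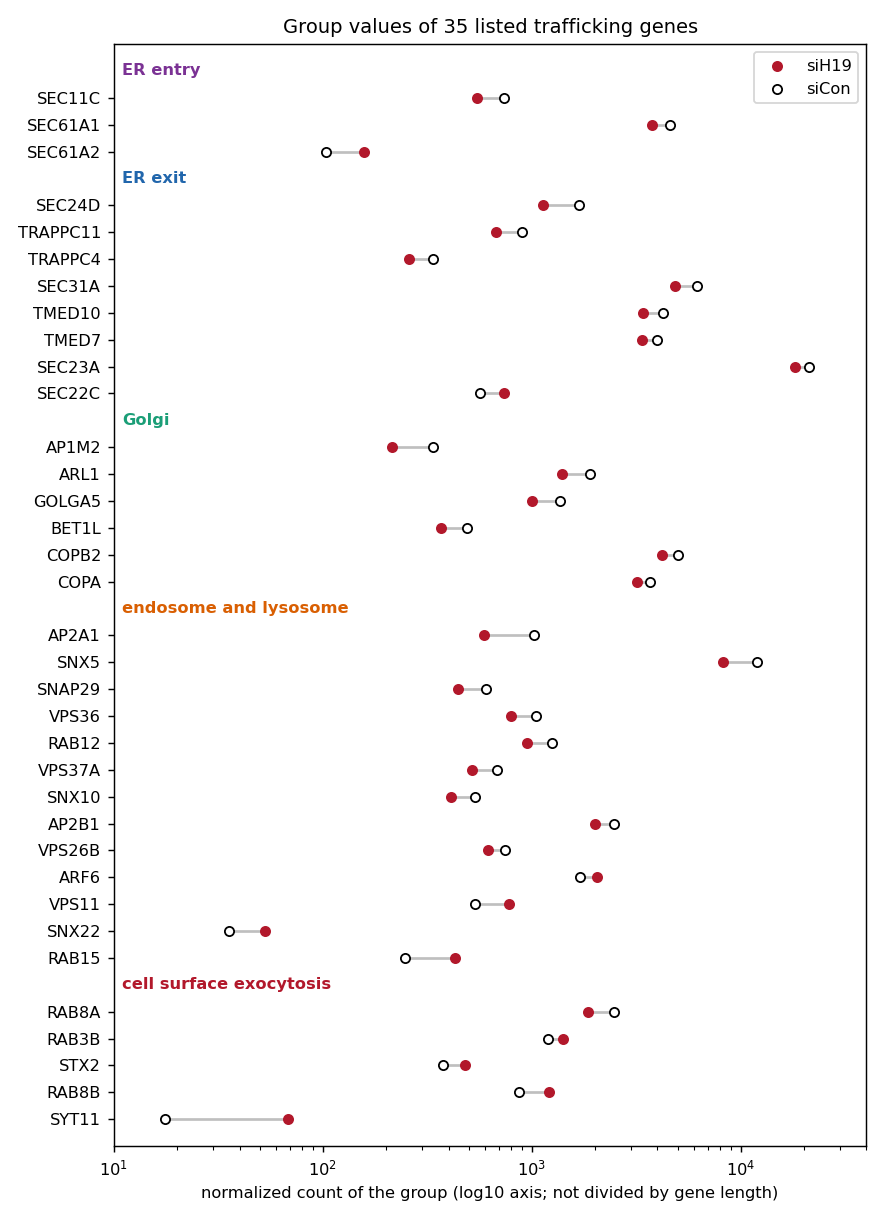
Normalized count of 35 of the 37 genes in siH19 (filled) and siCon (open) on a log10 axis, 1 combined value per group, so no error is drawn. Lines are short for most genes, as for SEC23A with 18179 in siH19 and 21174 in siCon, and longest for SYT11 with 68.1 in siH19 and 17.5 in siCon.

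Of 13 endosome and lysosome genes 9 were lower (69.2%) and 4 higher, with a median log2 fold change of -0.38. Both listed subunits of AP2, the adaptor that gathers receptors into clathrin pits, fell. AP2A1 had 592.2 in siH19 and 1024 in siCon, -0.78 ± 0.09, a 1.72-fold fall and the largest among the 37, with an adjusted p written as 0 in the authors' deposited table. AP2B1 had 2006 in siH19 and 2487 in siCon, -0.32 ± 0.08 (adjusted p = 0.00117), in the authors' deposited table. The other 3 of the 5 annotated AP2 subunits were not among the listed genes.

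Genes of retrieval from endosomes and of the ESCRT machinery, which sorts receptors for breakdown, were mostly lower. SNX5, a sorting nexin that shapes retrieval tubules, had 8192 in siH19 and 11994 in siCon, -0.55 ± 0.08, with an adjusted p written as 0 in the authors' deposited table. VPS26B, a retromer subunit, had 617.4 in siH19 and 744.4 in siCon, -0.27 ± 0.10 (adjusted p = 0.0337), in the authors' deposited table. SNX10, a sorting nexin with a role in endosome and lysosome acidification, had 410.1 in siH19 and 537.5 in siCon, -0.38 ± 0.13, in the authors' deposited table. Of these, only SNX5 was near a 1.5-fold fall, at 1.46-fold. VPS36 of ESCRT-II had 792.4 in siH19 and 1053 in siCon, -0.41 ± 0.09, and VPS37A of ESCRT-I had 519.1 in siH19 and 680.3 in siCon, -0.39 ± 0.12, in the authors' deposited table. SNAP29, a SNARE of autophagosome fusion with lysosomes, had 445.7 in siH19 and 604.7 in siCon, -0.44 ± 0.14, and RAB12, a GTPase of recycling endosomes, had 948.8 in siH19 and 1252 in siCon, -0.40 ± 0.12, in the authors' deposited table. The falls of VPS36, VPS37A, SNAP29 and RAB12 lay within a range of 0.05 on the log2 scale, less than the smallest of their SEs, 0.09. VPS36 shares exons with THSD1 on the same strand, so reads could be shared.

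The endosomal genes that rose have different tasks. RAB15, a GTPase of receptor recycling, rose most, with 427.6 in siH19 and 249 in siCon, 0.78 ± 0.13, an adjusted p written as 0 in the authors' deposited table. VPS11, the core subunit shared by the HOPS and CORVET tethers of lysosomes and endosomes, had 781.4 in siH19 and 533.7 in siCon, 0.55 ± 0.13 (adjusted p = 0.000215), in the authors' deposited table. ARF6, a GTPase of the cell surface and recycling endosomes, had 2062 in siH19 and 1710 in siCon, 0.27 ± 0.08 (adjusted p = 0.00989), in the authors' deposited table. RAB15 was thus the largest rise of this group, at 1.72-fold. SNX22 had 52.7 in siH19 and 35.8 in siCon, 0.56 ± 0.21 (adjusted p = 0.0436), in the authors' deposited table, at a low count and near the threshold. Its exons overlap those of PPIB on the opposite strand and no label or header states if strand was used in counting.

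The start regions of the largest fall and the largest rise among members whose mean count reached the median of the table, AP2A1 and VPS11, are given with a motif in capitals, CCAAT in AP2A1 and TCACGTGA, which is its own complement and contains CACGTG, in VPS11. CCAAT was found on either strand in 34.6% of all RefSeq promoter windows.
AP2A1, chr19:49766850-49766879, plus strand, GRCh38.p14: ttgcttggcggCCAATgagagaggaagtgg
VPS11, chr11:119067772-119067801, plus strand, GRCh38.p14: gctggctcagcTCACGTGAcaaagctcccg

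Of 51 further genes of endosomes, ESCRT, clathrin and sorting receptors, 7 were listed, 5 lower and 2 higher, with a median of -0.26. Of all listed genes 55.3% were lower. The 2 largest falls in the authors' deposited table were ASGR1 (-0.54 ± 0.11), a subunit of the hepatocyte receptor for galactose-ended glycoproteins, and PIKFYVE (-0.40 ± 0.08), the lipid kinase of endosomes. ASGR2, the other subunit of that receptor, was also lower (-0.31 ± 0.08) in the authors' deposited table. The ESCRT-III genes CHMP4C (0.45 ± 0.15) and CHMP1B (0.27 ± 0.09) were higher in the authors' deposited table. VPS37A of ESCRT-I and VPS36 of ESCRT-II, given above, were lower. The unlisted ESCRT genes have no value here, so no pattern by complex is read from these few.

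Genes that act at the cell surface rose in 5 of 6 cases, with a median log2 fold change of 0.405. SYT11, a synaptotagmin that does not bind calcium, had 68.1 in siH19 and 17.5 in siCon, 1.96 ± 0.21, a 3.89-fold rise with an adjusted p written as 0 in the authors' deposited table. It ranked 1 among all 1998 listed genes by its rise, and it was the single member changed at least 2-fold. Its mean count, 42.7, was also the lowest of the 37. Poisson counting over 3 libraries in each group, at these counts and with library scaling set aside, gives an SE of 0.223, against 0.21 in the authors' deposited table. SYT11 was the 1 member whose deposited SE lay under its counting error. Listed genes outside the 37 were not checked singly for this. Over all listed genes the deposited SE reached at most 0.22, while mean counts went down to 12.3. Counting error grows as counts fall, so a deposited SE under it is not particular to SYT11 in the table. SYT11 was the 1 listed gene of 17 annotated synaptotagmins.

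RAB8A and RAB8B, near relatives that direct vesicles to the cell surface, moved in opposite directions. RAB8A had 1859 in siH19 and 2487 in siCon, -0.42 ± 0.08 (adjusted p = 2e-06), in the authors' deposited table. RAB8B had 1209 in siH19 and 873.1 in siCon, 0.47 ± 0.12 (adjusted p = 0.0009), in the authors' deposited table. The changes were 5.25 and 3.92 times their SEs, and the difference between the paralogues was not tested. RAB8A shares exons with HSH2D on the same strand, so reads could be shared.

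Other surface genes rose modestly. STX2, a plasma membrane syntaxin, had 481 in siH19 and 377.4 in siCon, 0.35 ± 0.12 (adjusted p = 0.0197), in the authors' deposited table. RAB3B, a GTPase of secretory vesicles, had 1418 in siH19 and 1193 in siCon, 0.25 ± 0.09, in the authors' deposited table, and its adjusted p of 0.0436 was level with that of SNX22 as the highest of the 37. Among 27 genes of the exocyst and of fusion at the plasma membrane 3 were listed: UNC13D (0.64 ± 0.12), a priming factor of granule release, and the motor MYO5B (0.26 ± 0.09) were higher, and the SNARE-binding STXBP5 (-0.33 ± 0.10) was lower, in the authors' deposited table.

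**Figure D3:**
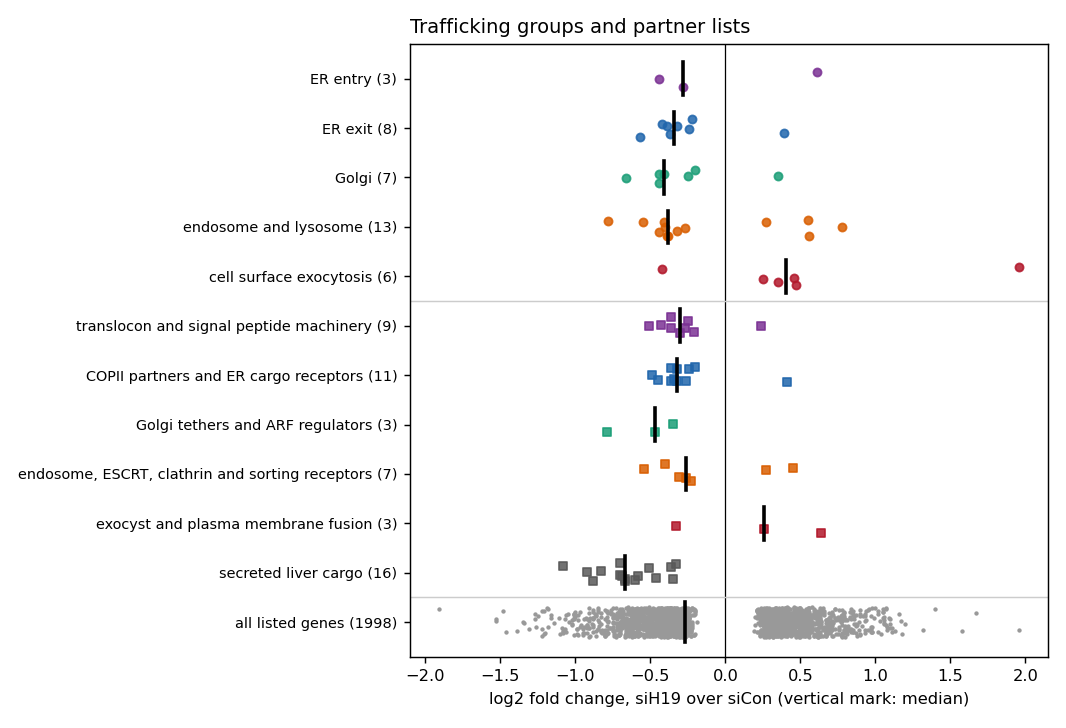
Log2 fold change of single genes in each trafficking group (circles), in each list of partner genes (squares) and in all listed genes (grey), with the number of genes in brackets and a vertical mark at the median. ER exit and Golgi medians lie at -0.345 and -0.41, and the cell surface median lies at 0.405.

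Arranged by molecular role, a division made after the values were seen, all 8 coat and adaptor subunits fell, with a median log2 fold change of -0.345. These are SEC23A, SEC24D, SEC31A, COPA, COPB2, AP1M2, AP2A1 and AP2B1. Of 9 small GTPases, 6 rose, RAB15, RAB8B and ARF6 among them, and 3 fell (ARL1, RAB8A and RAB12), with a median of 0.27. SNAREs and the synaptotagmin were divided, 3 higher and 2 lower. Of 4 tether subunits 3 fell, and both ESCRT subunits and both p24 receptors fell. Of all listed genes 55.3% were lower, which is the share these counts stand beside.

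Genes with high counts were lower more often over the whole table. Among listed genes with a mean count of at least 1000, 60.4% were lower, and among those under 1000, 52.4%. The same split of the 37 gave 14 of 18 lower (77.8%) and 11 of 19 lower (57.9%). The median of the mean counts was 640.4 for ER entry, 2544 for ER exit, 1650 for Golgi, 680.6 for endosome and 753.6 for cell surface genes in the authors' deposited table. Counts were thus highest in ER exit and Golgi genes, where the share lower was also highest, but the other 3 groups did not follow that order. The part of the count in the split by group was not tested.

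**Figure D4:**
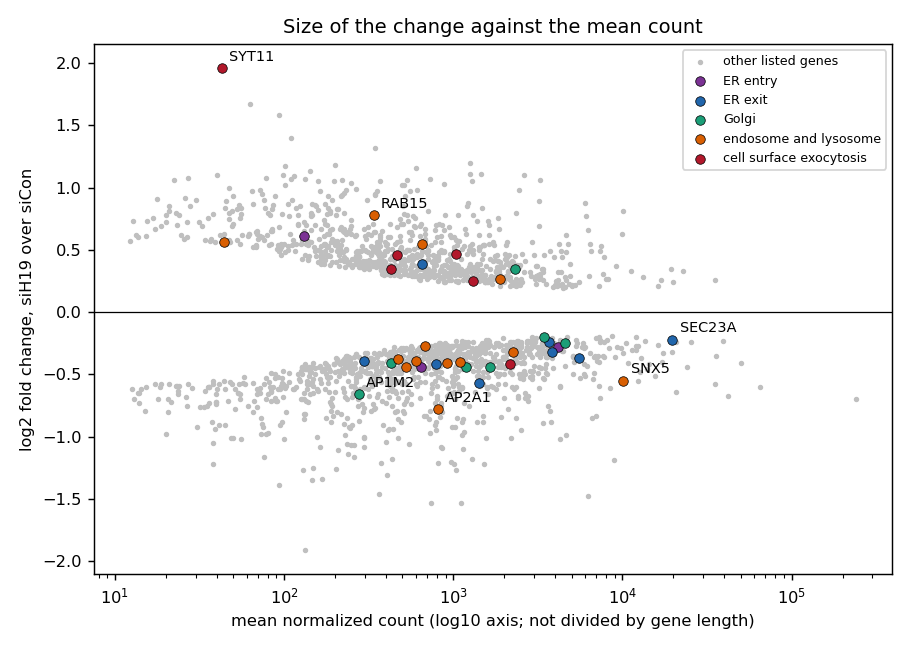
Log2 fold change against the mean normalized count on a log10 axis for all 1998 listed genes (grey) and the 37 trafficking genes (coloured by group). SYT11 is the highest point, at 1.96 and a mean count of 42.7, and the empty band around 0 is the range in which no gene was called, which narrows as counts rise.

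Transcripts of secreted proteins that use this route were lower in every listed case. Of 21 genes for major secreted liver proteins 16 were listed and all 16 were lower, with a median log2 fold change of -0.67, beside -0.345 for the 18 genes of ER entry, ER exit and Golgi together, of which 15 were lower. Of all listed genes 55.3% were lower, with a median of -0.27, and of all protein-coding names 9.7% were listed. ALB, AFP, APOB, APOA1, TTR and SERPINA1 are also among the hepatocyte markers given above, so these sets overlap and are not separate results. In the authors' deposited table ALB had a normalized count of 32768 in siH19 and 51776 in siCon, at a log2 fold change of -0.67 ± 0.07, and the falls ran from SERPINC1 (-1.08 ± 0.12) and APOC3 (-0.92 ± 0.13) to APOA1 (-0.33 ± 0.10). This cargo list was chosen with earlier results of these data known.

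The motif of the start regions shown first was looked for in all RefSeq promoter windows, each from 250 bases before to 50 bases after a gene's start, on both strands. TGACGTGG was in 0.729% of 35116 windows. Of the 37 members 30 had an entry, with 45 windows, and 5 windows (11.1%) of 4 genes held it. COPB2 counts more than once among these windows, as its overlapping windows hold the same sites. The 7 without an entry include BET1L, RAB12, RAB15, SEC24D and VPS37A. Over all listed genes with an entry, 24 of 1527 (1.57%) held it, of which 21 (87.5%) were lower and 3 higher. Of all listed genes 55.3% were lower. Of these 24, 8 were members or genes of the 3 early secretory lists, COPA, COPB2, GBF1, GOLGA5, KDELR3, SCFD1, SEC23A and SSR3, and all 8 were lower. With or without the motif, 21 of the 23 listed genes of those lists (91.3%) were lower, with MIA2 and CTAGE5 counted as 2 genes. So were 15 of the 18 members of ER entry, ER exit and Golgi (83.3%). Nothing about the motif is therefore read from the direction of these 8. The COPA stretch also lies in the window of NCSTN, a listed gene on the opposite strand, and so counts for both among the 24. COPA and NCSTN overlap, and both were lower (-0.20 and -0.30) in the authors' deposited table, so reads of the pair could be shared.

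Other motifs were searched in the same windows. CCAAT followed by CCACG after a gap of 9 bases, the ER stress element known to bind ATF6 with NF-Y, was in 0.0769% of all windows and in none of the 30 members with an entry. It was in 6 listed genes, all lower, beside 55.3% of all listed genes. The chaperones CANX, HSP90B1 and HSPA5 stood at -0.40, -0.33 and -0.30 in the authors' deposited table. PDIA6, SERP1 and the transcription factor XBP1 stood at -0.26, -0.55 and -0.28 in the authors' deposited table. Of the listed genes of the 3 early secretory lists, HSPA5 among them, 91.3% were lower whether or not they held a motif. Nothing about the element is therefore read from the direction of these 6. Without its last base the element was in 14 listed genes, 11 lower and 3 higher. TGACGTCA, the cyclic AMP response element, which shares TGACGT with the motif above, was in 1.85% of windows and in AP2B1 and SNX5, both lower. Over all listed genes it was in 71, of which 30 (42.3%) were lower. The palindrome TCACGTGA, which contains the core of elements of lysosomal genes, was in 0.98% of windows and, of the 30 members with an entry, in VPS11 alone. Over all listed genes it was in 23, of which 8 (34.8%) were lower and 15 higher. The shorter motifs searched lay near the share of the whole table. Their listed carriers were lower in 57.7% for TGACGT, 58.5% for ACGTG, 56.7% for CACGTG, 53.7% for CCACG and 56.6% for CCAAT. In all 11 motifs were searched, some of which overlap each other, and a match describes these letters only.

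The 7-base UTR sequences were found in 7 of the 37 members. Both sequences come from earlier results on these same data, so their shares in the whole table restate that choice and are description only. CATCAAA was in 362 of 1927 listed genes searched, of which 71.5% were lower, beside 50.7% of those without it. Among the 37 it was in 5, of which SNX10, VPS37A and RAB8A were lower and RAB8B and RAB15 were higher, so the RAB8 paralogues both hold it and moved apart. GCAGTAC was in 188 listed genes, of which 17.0% were lower, beside 58.7% of those without it. Among the 37 it was in 2, both higher, of which STX2 is shown. No entry of the RefSeq table of mature human microRNAs pairs with either through its seed, bases 2 to 8. The longest annotated 3′ UTR had a median length of 2020 bases for the members and 1599 for all listed genes, and its part in these matches was not tested. The other 30 members hold neither sequence, SYT11, AP2A1 and all COPII and COPI genes among them.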

How the data were processed

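RNA of 6 libraries, siH19 (3) and siCon (3), was depleted of ribosomal RNA, made into stranded libraries and read in pairs of 76 cycles, per the labels' protocols. The submitters' processing notes name STAR 2.5.0a, Cufflinks 2.2.1, DESeq2 1.0.0 and hg19, without role or order. The authors deposited 1 table, limited to called genes. Per the file headers it holds a log2 count per group, a log2 fold change and its SE, all on a log2 scale. The authors' mean count, as deposited, is a normalized signal with decimals. The adjusted p deposited by the authors is a q value, at most 0.0498, and 0 means below its precision. In every row the fold change equalled siH19 minus siCon within 0.01. Whether libraries came from separate cultures is not said, so the authors' p-values may reflect technical spread only.

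No test was added: groups of genes were described by counts and medians, with pandas 2.3.3 and scipy 1.17.1. Members, lists, motifs and the rule for named genes (all members, the extremes of each list; 2 members, counted throughout, are not reported by name here or drawn by name) were chosen with earlier results of these data known, and genes beyond the rule, the promoter stretches and the roles were chosen after their values were seen. GENCODE release 29 matched 1976 listed names and all 37 members, 19 of which share exonic sequence with another annotated gene, 5 on the same strand, so reads could be shared. UTRs were pooled over all basic transcripts of a gene. Columns of samples outside the series numbered 0. The alternatives tried are given with the closing values.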

Additional observations from a re-analysis of the deposited data

How the results depend on the processing

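The share of members higher in siH19, the same share in the ER exit, Golgi and endosome groups, and the median of the members were recomputed under filters on the adjusted p, the count and the fold, without RAB genes, without the 2 members that overlap another listed gene and with other group borders, and, chosen after seeing the data, without SYT11. Of these 32 values 28 stayed within the interval or the typical SE of the value reported. This is a weak check, as the intervals of the groups are wide and most alternatives are subsets of the same genes. Some removed no gene, so their values could not move. Among them were the count and RAB filters in the ER exit and Golgi groups, and the overlap filter in the endosome group. Among the 5 members changed at least 1.5-fold, 60% (3 genes) were higher and 2 were lower. Their median was 0.61, a reversed sign that rests on these 5 genes only. Under the same filter the Golgi share rests on 1 gene, 0.0% higher. A mean weighted by the inverse square of the SE was -0.179 in place of the median of -0.32. The alternative without members of no trafficking role removed no gene, and no ER exit gene changed 1.5-fold. With 1 combined value per group, no library could be left out. No paired analysis was possible because the columns carry no replicate. The deposited values give no depth per library, so the precision of single genes rests on the authors' SE.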

Other observations

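Genes near the trafficking route but outside the name rule and the lists were chosen after their values were seen. SCAMP1, a carrier protein of recycling vesicles, was higher in the authors' deposited table at 0.78 ± 0.09, with a normalized count of 1121 in siH19 and 657.1 in siCon. The protease FURIN, which cuts proproteins in the trans-Golgi, was higher (0.60 ± 0.13) in the authors' deposited table, as was its relative PCSK7 (0.36 ± 0.13). CREB3L2, a membrane-bound transcription factor of secretory genes, was lower (-0.51 ± 0.14) in the authors' deposited table, while ATF6B, an ER stress sensor, was higher (0.32 ± 0.11). EDEM1, which takes part in the disposal of misfolded ER proteins, stood at -0.40 ± 0.09 and the ER oxidase ERO1A at -0.39 ± 0.12 in the authors' deposited table.

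Single genes that act on RAB proteins, or are named as relatives of such genes, were likewise picked after their values were seen and form no fixed list. In the authors' deposited table TBC1D7 (0.55 ± 0.17), RABGGTA, which attaches the lipid anchor of RAB proteins (0.39 ± 0.12), TBC1D16 (0.29 ± 0.09) and TBC1D8 (0.27 ± 0.08) were higher. TBC1D8B (-0.42 ± 0.14), TBC1D1 (-0.37 ± 0.09) and TBC1D20, which inactivates RAB1 at the ER (-0.27 ± 0.09), were lower in the authors' deposited table. LAMTOR2, a subunit of the complex that anchors mTORC1 signalling at lysosomes, was higher in the authors' deposited table (0.54 ± 0.17).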
